A study of Mus musculus with 6 samples.

Results

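RNA from C17.2 cells, an established mouse multipotent neural stem cell line (strain CD1 x C57BL/6), was sequenced in 3 groups of 2 libraries, and the present comparison sets the heme-treated cells directly against the cells put through neural induction. The induction medium was Knockout DMEM with GlutaMAX, N2 supplement and 10 ng/ml brain-derived neurotrophic factor (BDNF), whereas growth medium was DMEM/F12 with fetal bovine serum. The sources used here do not give the heme dose, how long cells were exposed to it or in what medium, nor the time in induction medium. The comparison takes in 4 of the 6 deposited samples, which come to 3 of 5 distinct libraries: the values deposited for heme replicate 2 were those of replicate 1 multiplied by 1.25 to 1.5 in every one of the 13963 transcript rows above 0, and the 1150 rows at 0 were the same in both. The pair was counted as 1 library. By contrast, 1228 transcript rows were at 0 in only one of the 2 induction libraries. Abundance was deposited as FPKM (fragments per kilobase of transcript and per unit of library depth) for 15113 transcripts and was summed here over the transcripts of each assembled locus, which gave 7171 loci. The 2 control libraries entered no contrast and are quoted only as reference values.

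Heme is the iron porphyrin of cytochromes and hemoglobin. Cells make it in a pathway that starts with ALAS1 in the mitochondrion and ends with ferrochelatase, and break it down with heme oxygenases, which release iron, carbon monoxide and biliverdin. Free heme is known to repress ALAS1 and to induce HMOX1, and the iron that it releases is known to raise ferritin output and to destabilise the transferrin receptor mRNA. Neural induction media of the kind used here withdraw serum and add BDNF, a ligand of the TrkB receptor, and are known to push progenitors towards neurons.

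Marker levels were alike in the heme and induction libraries. Of the neural progenitor markers, nestin (Nes) was at 128 FPKM in the heme library and 123 and 108 in the induction libraries, the intermediate filament vimentin (Vim) at 782 against 783 and 794, and the stem cell factor Sox2 at 18.6 against 19.8 and 18.9. Sox1, Sox9 and Pax6 were not among the listed loci. No listed locus carried a name from the astrocyte, erythroid, microglial or endothelial marker lists. The coverage and FPKM columns together put the depth at 4.3 gigabases for the heme library and 4.56 and 4.14 for the induction libraries. Control replicate 2 stood apart from its sister: the median absolute log2 difference between the controls was 0.208, against 0.106 between the induction libraries, so control values are given by replicate.

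Heme and induction libraries were about as far from each other as the induction libraries were from themselves. On the scale of log2(FPKM + 1), used throughout, the median absolute difference was 0.116 between heme and induction replicate 1 and 0.104 between heme and induction replicate 2, beside 0.106 within the induction pair. The number of loci at least 1.5-fold apart was 835 and 842 for the pairs with heme and 865, or 12.2% of loci tested, within induction. The median difference, heme minus the mean of induction, was -0.024. Among 7109 loci with at least 1 FPKM in at least 1 of the 3 libraries, limma with Benjamini-Hochberg adjustment called 0 loci (0.0%) at an adjusted p under 0.05, and the lowest adjusted p was 0.639. At an unadjusted p under 0.05 there were 490 loci, where 355 would pass if none differed. The fit has 1 residual degree of freedom, from the induction pair, and assumes that the lone heme library varies like that pair. Even MSTRG.4861, at 0 FPKM with heme against 43.3 and 45.8, and Gm12346, at 55.9 against 0 and 0, did not pass. The counts of 0 past the test given below therefore do not show that a gene group was unchanged. The p-values rest on the spread between the 2 induction libraries, which the labels call biological replicates, and on no spread between heme samples. A fit that also took its spread from the controls called 4 loci (0.0563%), 1 with heme higher and 3 with heme lower, and 263 loci at an unadjusted p under 0.05.

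**Figure D1:**
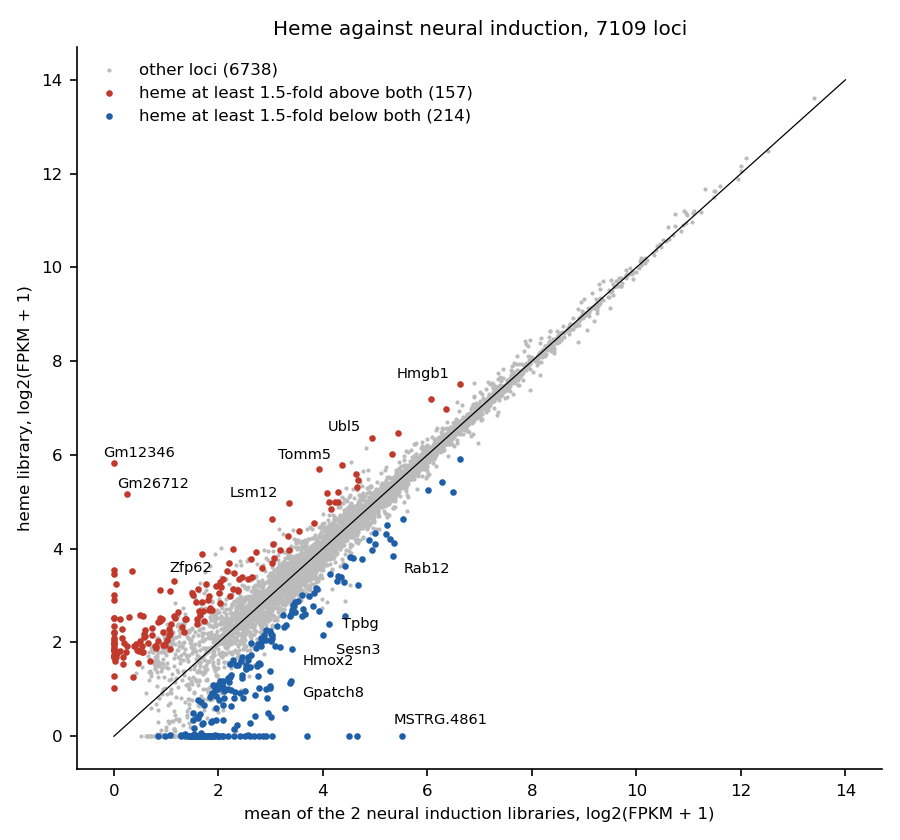
Each point is 1 of 7109 loci; the x axis is the mean log2(FPKM + 1) of the 2 induction libraries, the y axis that of the heme library, and the line marks equality. The 157 red loci lay at least 1.5-fold above both induction libraries and the 214 blue loci at least 1.5-fold below both, and most of them sit at the low end.

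Since no locus passed the test, loci are described by a rule of size with no test: the heme library at least 1.5-fold above the higher, or below the lower, induction library. By this rule heme was above both at 157 loci (2.21%) and below both at 214 loci (3.01%). A locus could pass the filter through the heme library alone: with at least 1 FPKM required in 2 of the 3 libraries, 96 were above and 207 below. With no size threshold, heme lay above both libraries at 1938 loci (27.3%), below both at 2851 (40.1%) and between them at 2320, and the positions of gene groups below are to be read against those shares. Of the 5 libraries, controls included, heme was the lowest at 1391 loci (19.6%) and the highest at 982 (13.8%). Just inside the rule were Rgl2, at 4.64 FPKM with heme against 0.749 and 2.73, and Tbce, at 0.00515 against 1.13 and 0.508. Just outside it were Trim2, at 11.7 against 5.16 and 7.43, and Kif2a, at 20.3 against 34.1 and 31.0.

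The loci past the rule were mostly weakly expressed. Under a mean of 5 FPKM, 22.4% of loci lay at least 1.5-fold outside the induction pair, from 5 to 20 FPKM 3.2%, from 20 to 100 FPKM 1.22%, and over 100 FPKM 0.152%, which is a single gene. The share of loci at which the 2 induction libraries were themselves 1.5-fold apart was 43.9%, 10.1%, 2.66% and 4.39% in the same 4 classes. Lying outside both libraries is a stricter rule than a distance within a pair, so these shares are not like for like. The single gene over 100 FPKM was Hmgb1, which encodes an abundant DNA-bending chromatin protein and was singled out after its values were seen. Its level was 182 FPKM with heme and 98.5 and 96.4 after induction, with controls at 101 and 92.2, a log2 difference of 0.90 ± 0.041 (standard error; limma, adjusted p = 0.639).

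**Figure D2:**
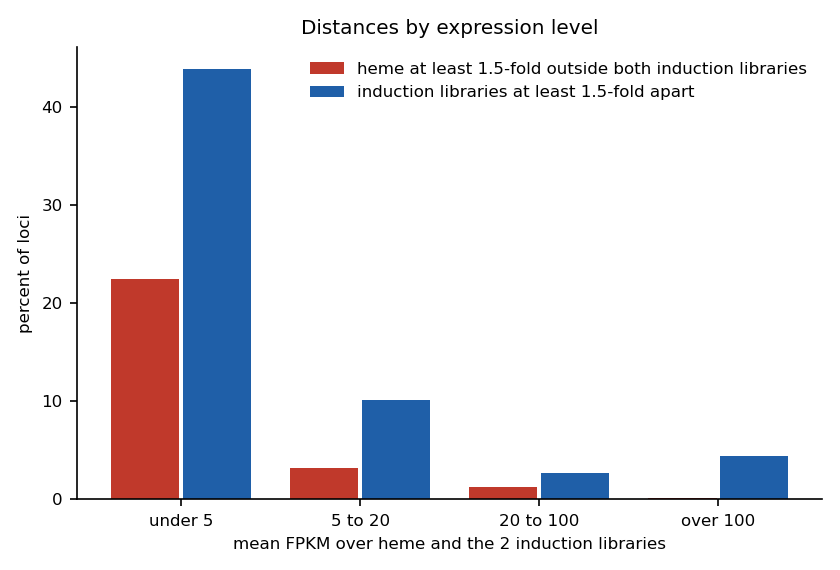
Bars give the percentage of loci in each class of mean FPKM: red, heme at least 1.5-fold outside both induction libraries; blue, the 2 induction libraries at least 1.5-fold apart. Both shares are highest under 5 FPKM, at 22.4% and 43.9%. The red rule, which requires heme to lie outside both libraries, is the stricter one.

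The median mean FPKM was 2.46 for the heme-higher and 3.48 for the heme-lower loci, against 18.0 over all loci tested, so their other features are compared within loci under 5 FPKM. There, no gene symbol was given for 41.1% of the 112 heme-higher and 38.6% of the 140 heme-lower loci, against 33.3% of the 875 others. A single listed transcript was held by 87.5% and 82.9%, against 66.4%. Where a locus had several transcripts, the one with the highest FPKM was not the same in the 3 libraries at 57.1% and 70.8%, against 75.5% of the others. At least one of the 3 libraries was at exactly 0 for 33.0% and 36.4%, against 18.3%, a share that the rule itself raises. At such loci a loss of output and the assignment of reads to transcripts that are not listed cannot be told apart. In a bulk sample, fewer cells of a kind and less RNA per cell cannot be told apart either.

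Both controls were nearer to induction than to heme at 57 of the 157 heme-higher loci and nearer to heme at 37. For the 214 heme-lower loci the numbers were 102 and 46. At the remaining loci the 2 controls fell on different sides.

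Among named loci of at least 5 FPKM, the 10 largest distances with heme higher included pseudogene annotations as well as coding genes. Gm12346, a processed pseudogene that lies within the phosphatase gene Ssh2 (chr11:77293444-77296391), was at 55.9 FPKM with heme and at 0 in both induction libraries, with controls at 5.30 and 0. The single annotated transcript held all 55.9 FPKM of the heme library, and the 5.30 of control replicate 1 sat on an unannotated one. Gm26712 (chr6:57689433-57689649, minus strand) was at 34.8 FPKM with heme and at 0.179 and 0.216 after induction, with controls at 25.3 and 22.2. This pseudogene annotation lies wholly inside the last exon of Pyurf, which is itself not listed, so the reads may belong to either. Gm26712 was the heme-higher locus called when the controls lent their spread (log2 difference 4.90 ± 0.21 (SE), limma, adjusted p = 0.027). Controls sat with heme here, so the induction libraries were the low ones.

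The same position of the controls held for several coding genes. Lsm12, an RNA-binding Sm-like protein, was at 30.5 FPKM with heme against 9.17 and 9.12, with controls at 28.0 and 29.3 (log2 difference 1.64 ± 0.08 SE, limma, adjusted p = 0.639). The zinc finger gene Zfp62 was at 9.27 against 3.13 and 3.33, with controls at 9.81 and 9.53. In both, the 2 induction libraries were the low ones and the other 3 libraries stood together.

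Elsewhere heme stood alone. Tmem127, a membrane protein known as a negative regulator of mTOR, was at 13.9 FPKM with heme and at 3.39 and 1.34 after induction, with controls at 1.41 and 2.67. Ndufaf4, an assembly factor of respiratory complex I, was at 15.0 against 4.18 and 3.56, with controls at 5.13 and 4.40. Ubl5, a ubiquitin-like splicing and mitochondrial stress protein, was at 81.7 against 33.6 and 26.1, with controls at 47.2 and 35.3. In Ubl5 the heme library put 63.7 FPKM on transcript ENSMUST00000160874, which held at most 0.805 FPKM in any other library.

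For 2 further genes a control matched heme. Peak1, a pseudokinase of the cytoskeleton, was at 51.2 with heme against 16.7 and 12.1, but the controls were at 16.1 and 54.2. Tomm5, a small subunit of the mitochondrial import pore, was at 53.9 against 23.8 and 16.1, with controls at 53.8 and 20.4. There 40.6 FPKM of the heme library and 36.5 of control replicate 1 were on ENSMUST00000107810, which held under 1 FPKM in the other 3 libraries. The microRNA and pseudogene annotation Gm24865/Gm4613 completed the set of 10, at 10.5 against 3.82 and 3.13.

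In the other direction, Rab12, a small GTPase of endosome-to-lysosome traffic, was the most highly expressed of the 10: 13.3 FPKM with heme against 39.3 and 39.6, with controls at 40.7 and 34.0 (log2 difference -1.50 ± 0.055 SE, limma, adjusted p = 0.639). Gpatch8, a G-patch RNA-binding protein, was at 1.27 against 9.51 and 9.54, with controls at 9.81 and 9.45. Sesn3, a sestrin that is a known FOXO target and restrains mTORC1, was at 3.44 against 14.1 and 16.2, with controls at 15.6 and 9.68. In these 3 genes the heme library was the lowest of 5, below both controls as well.

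Gm13597, a processed pseudogene, was likewise at 4.90 against 21.3 and 19.8 with controls at 21.6 and 19.5, and there the whole distance lay on an unannotated 2-exon transcript at 0 in heme. Tpbg, a Wnt-modulating membrane glycoprotein, was at 4.26 against 15.7 and 17.1, with control replicate 1 at 16.7 and control replicate 2 at 2.12. Paqr8, a progestin receptor of the membrane, was at 1.62 against 7.02 and 6.93, with controls at 1.95 and 5.76. For Tpbg and Paqr8 one control thus sat with heme.

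The remaining 4 had unequal induction libraries or low controls. Ahnak2 was at 0.510 FPKM with heme against 4.83 and 15.1, with controls at 5.705 and 5.21. Mocs2, of molybdenum cofactor synthesis, was at 0.750 against 3.99 and 10.6, with controls at 4.485 and 7.45. For both Ahnak2 and Mocs2 the heme library was below the controls as well. Ict1 (Mrpl58), a peptidyl-tRNA hydrolase of the mitochondrial ribosome, was at 1.21 against 5.70 and 14.8, but both controls were low too, at 1.01 and 1.55. Stoml2, a scaffold of the inner mitochondrial membrane, was at 1.12 against 8.20 and 5.86, with controls at 2.15 and 2.22.

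**Figure D3:**
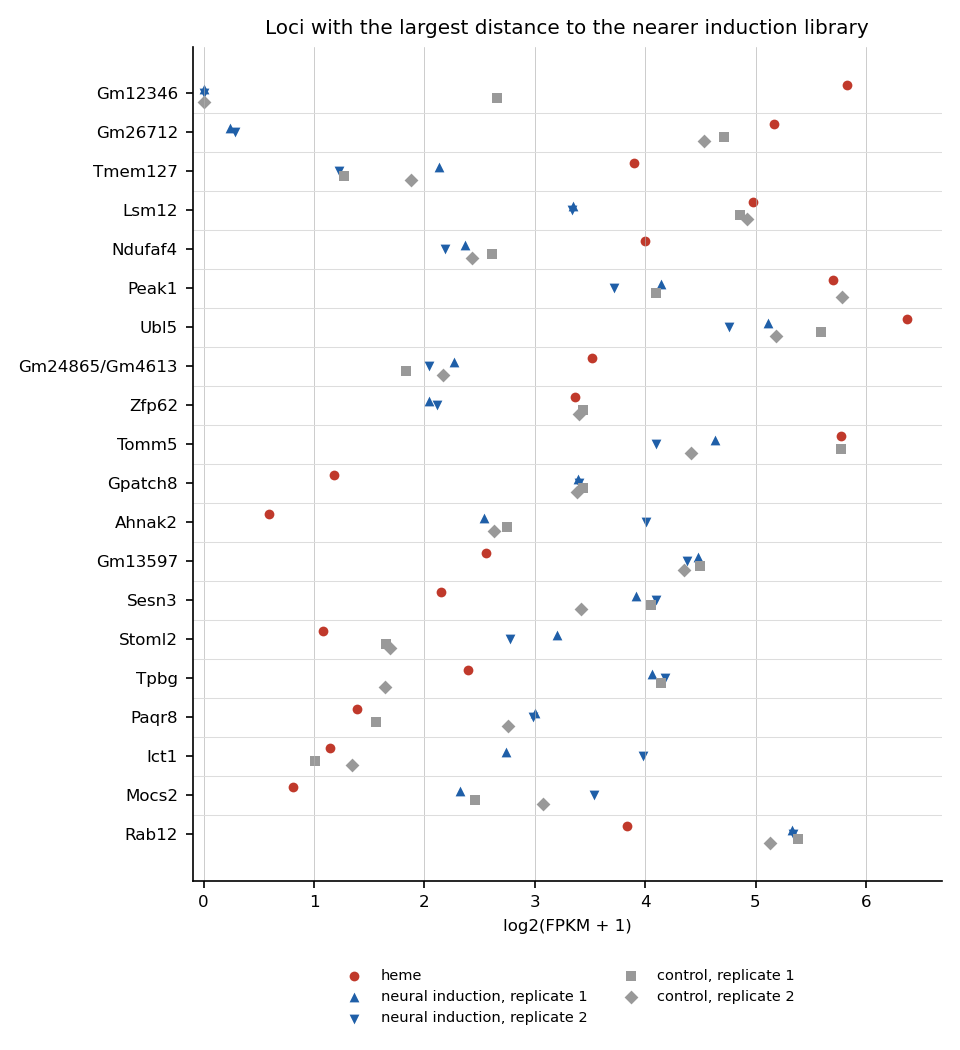
Points give log2(FPKM + 1) in each of the 5 libraries for the 10 loci with the largest distance above, and the 10 with the largest distance below, the nearer induction library. The controls sit with heme for Gm26712, Lsm12 and Zfp62 and with induction for Gpatch8, Gm13597 and Rab12.

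The 3 heme-lower loci called when the controls lent their spread had no gene symbol and were at 0 in the heme library. MSTRG.4861 (chr12:109894378-109895125, overlapping the processed pseudogene Gm3379) was at 43.3 and 45.8 FPKM after induction and at 44.9 and 44.0 in the controls (limma, adjusted p = 0.0063). MSTRG.7695 (chr16:42663917-42664160, over Gm49739) was at 24.7 and 23.3, with controls at 20.3 and 22.7, and MSTRG.4724 (chr12:86845759-86846508, over Gm10095) at 21.3 and 21.9, with controls at 21.3 and 19.9 (limma, adjusted p = 0.017 for each). Another unnamed locus, MSTRG.13261 (chr3:138577353-138577589), overlaps no annotated gene and was at 0 in the heme library and in control replicate 1, against 11.7 and 12.1 after induction and 13.0 in control replicate 2. So a value of 0 at such a locus also occurred without heme.

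Of the listed genes of heme and iron metabolism 0 passed the test, as for all loci, and heme was the lowest of the 5 libraries for 8 of 24 (33.3%) and the highest for 3 (12.5%). Some of their mRNAs carry iron-responsive elements, hairpins through which iron regulatory proteins protect the Tfrc mRNA or hold back ferritin translation when iron is short. They were searched for on the mRNA strand of the untranslated regions of GENCODE M21 (GRCm38) as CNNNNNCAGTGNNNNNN, with the 5 bases before CAGTG pairing with the last 5 (A with T, G with C or T). Of genes with an annotated 5′ region, 0.151% held a match, and of those with a 3′ region 0.614%. Tfrc had 4 matches in its 3′ region and the ferritin genes Fth1 and Ftl1 one each in the 5′ region, and they are shown because the levels below concern these mRNAs. Capitals mark the loop.
Tfrc 1, chr16:32631219-32631247, plus strand: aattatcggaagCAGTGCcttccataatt
Tfrc 2, chr16:32631598-32631626, plus strand: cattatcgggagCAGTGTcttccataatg
Tfrc 3, chr16:32631663-32631691, plus strand: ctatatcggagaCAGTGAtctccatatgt
Tfrc 4, chr16:32631710-32631738, plus strand: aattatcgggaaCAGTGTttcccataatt
Fth1, chr19:9982732-9982760, plus strand: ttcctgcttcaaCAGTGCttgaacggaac
Ftl1, chr7:45459779-45459807, minus strand: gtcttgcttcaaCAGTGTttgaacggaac

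Tfrc, the transferrin receptor that imports iron, was at 61.9 FPKM with heme against 85.5 and 79.9 after induction, with controls at 81.3 and 138. The heme library was the lowest of the 5 (log2 difference -0.41 ± 0.067 SE, limma, adjusted p = 0.705). By transcript, the full-length ENSMUST00000023486, which carries the 4 hairpins, was at 34.2 against 51.2 and 50.2. The shorter ENSMUST00000128285 (chr16:32624442-32632790), which spans the same hairpins, went the other way, at 9.29 against 6.08 and 5.44. Slc11a2, the iron transporter DMT1, was at 2.73 against 7.34 and 8.73, with controls at 6.83 and 6.27 (log2 difference -1.27 ± 0.19 SE, limma, adjusted p = 0.705), again lowest with heme. Its untranslated regions, in annotated protein-coding transcripts, were searched in the same way and held no match to the hairpin pattern above. The pattern allows no unpaired base within its 5 pairs, so elements of another shape would be missed. The search therefore cannot show that this mRNA lacks an element.

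The ferritin genes, whose products store iron, did not stand out. Fth1 was at 1981 FPKM with heme, between 2104 and 1834, and Ftl1 (with the microRNA annotation Gm22133) at 3786 against 4086 and 3810. Over the list of 12 iron genes heme lay above both induction libraries for 6 (50.0%) and below both for 5 (41.7%), with a median log2 difference of 0.016, and 0 passed the test. Ncoa4, the ferritin receptor of autophagy, belongs to the first set at 23.5 against 13.9 and 22.3, although its induction pair was itself far apart.

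Among the enzymes of heme synthesis, heme lay below both induction libraries for 6 of 8 listed genes (75.0%) and above both for none, with a median of -0.10, and 0 passed. Alas1, the rate-limiting first enzyme, was at 6.27 FPKM against 10.2 and 10.0, with controls at 9.50 and 11.3 (log2 difference -0.61 ± 0.11 SE, limma, adjusted p = 0.705). Fech, ferrochelatase, which inserts the iron, was at 12.9 against 23.3 and 22.7, with controls at 22.6 and 21.4 (log2 difference -0.79 ± 0.07 SE, adjusted p = 0.639). For both genes the 4 other libraries lay close together and heme was the lowest. The steps between were close to level: Alad at 10.1 against 10.99 and 11.2, and Cpox at 29.3 against 31.8 and 30.4, with controls at 29.7 and 34.1.

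The heme oxygenases differed in position. The stress-inducible Hmox1 was at 61.9 FPKM with heme, between the induction values of 79.4 and 46.2, with controls at 43.7 and 222. Its transcripts were split: ENSMUST00000005548 was at 10.9 against 76.6 and 44.3, with controls at 7.44 and 38.3. An unannotated Hmox1 transcript was at 49.5 with heme against 1.8 and 1.31, with controls at 35.3 and 179. Hmox2, the constitutive enzyme, was at 2.66 with heme against 10.5 and 8.93, with controls at 5.34 and 6.88 (log2 difference -1.55 ± 0.18 SE, limma, adjusted p = 0.639). The heme library gave reads to ENSMUST00000004172 alone, which starts at chr16:4726363 and was at 2.65 against 1.36 and 1.25. The transcripts that start at 4756903 and 4756994 were at 0 with heme and at 5.49 and 4.32, and 3.61 and 3.36, after induction. Control replicate 1 resembled heme in this split, with 5.33 on the first transcript and at most 0.00829 on each of the others. As sums, the biliverdin reductases Blvra (13.2 against 13.3 and 15.4) and Blvrb (6.26 against 6.16 and 6.37) lay close to the induction values. Within Blvra, ENSMUST00000002064 was at 3.29 with heme against 11.6 and 12.7, with controls at 2.85 and 2.12. An unannotated Blvra transcript was at 9.89 against 1.65 and 2.67, with controls at 10.2 and 11.3.

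**Figure D4:**
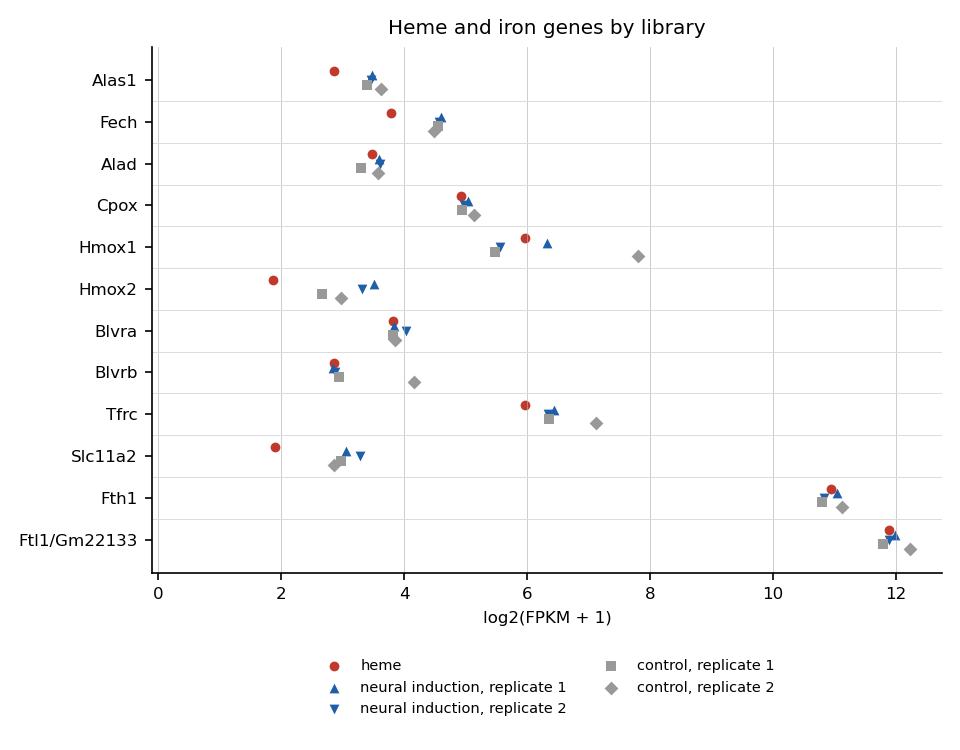
Points give log2(FPKM + 1) in each of the 5 libraries for genes of heme synthesis (Alas1 to Cpox), heme breakdown (Hmox1 to Blvrb) and iron handling (Tfrc to Ftl1/Gm22133). Heme is lowest of all libraries for Alas1, Fech, Cpox, Hmox2, Tfrc and Slc11a2, narrowly so for Cpox. Control replicate 2 is highest for Alas1, Cpox, Hmox1, Blvrb, Tfrc and both ferritins.

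Metallothionein and targets of NRF2, the regulator of the antioxidant response that also controls Hmox1, showed no heme-high pattern. Mt1, a metal-binding protein, was at 46.8 FPKM with heme against 54.5 and 47.1, with controls at 43.9 and 186. Of 17 NRF2 targets heme lay below both induction libraries for 10 (58.8%) and above both for 2 (11.8%), with a median of -0.083 and 0 past the test. Without induction replicate 1 the median was -0.015. Srxn1, sulfiredoxin, was at 15.0 against 19.1 and 16.6, with controls at 16.1 and 40.6, and Nqo1 at 8.40 against 10.9 and 8.68, with controls at 8.02 and 19.6. Prdx1, a peroxiredoxin, was at 228 against 205 and 148, with controls at 145 and 242. Its position above both rested on ENSMUST00000151129, at 68.2 with heme against 0 and 2.56. The other Prdx1 transcript, ENSMUST00000135573, was at 160 with heme, between 205 and 145. Control replicate 2 was the highest library for both Srxn1 and Nqo1.

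Genes of the mitochondrial ribosome lay mostly below induction. This ribosome translates the mitochondrially encoded subunits of the respiratory chain. Heme lay below both induction libraries for 44 of 58 members (75.9%) and above both for 4 (6.9%), with a median of -0.12, and 0 passed the test. Mrps12 was at 14.7 FPKM against 30.3 and 28.9, with controls at 27.9 and 26.6 (log2 difference -0.96 ± 0.071 SE, limma, adjusted p = 0.639). Mrps10 was at 13.7 against 20.5 and 20.5, with controls at 15.9 and 8.96. Mrps14 was at 3.24 against 5.95 and 6.16, with controls at 4.57 and 3.10. For Mrps10 and Mrps14 heme was thus within the range of the controls, whereas for Mrps12 it was the lowest library. Summed over the list, the level was 1657 FPKM with heme, 1835 and 1812 after induction and 1742 and 1752 in the controls.

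Cytosolic ribosomal proteins and nuclear subunits of oxidative phosphorylation lay less far to the same side. Of 139 loci with a name in Rpl or Rps, pseudogene copies among them, heme was below both libraries for 80 (57.6%) and above both for 17 (12.2%), with a median of -0.056. The names take in 3 genes that encode no ribosomal protein, the kinase genes Rps6kb1 and Rps6kc1 and the binding protein gene Rps19bp1, and without them heme was below both for 79 of 136 (58.1%). Without induction replicate 1 this median was -0.027. Rpl3 was at 339.9 FPKM against 469 and 476, with controls at 418 and 388, and Rps7 at 408 against 552 and 507. Reads of these genes can be shared with near-identical pseudogenes.

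Of 74 nuclear genes named for subunits of the respiratory chain and ATP synthase heme was below both for 43 (58.1%) and above both for 11 (14.9%), with a median of -0.062. Without Atp5s and Atp5sl, which are not subunits of the enzyme, these were 43 and 9 of 72. Cox6c, a subunit of cytochrome c oxidase, went the other way: 183 FPKM against 122 and 114, with controls at 186 and 187, so that the induction libraries were the low ones (log2 difference 0.63 ± 0.069 SE, limma, adjusted p = 0.639). Ndufb7 of complex I was at 68.1 against 47.7 and 53.3, with controls at 51.2 and 49.7. None of either list passed the test.

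Transcripts of the mitochondrial genome itself were on the other side. Of 10 loci, which hold the 13 protein genes, heme was above both induction libraries for 7 (70.0%) and below both for none, with a median of 0.13. The locus of mt-Atp6, mt-Atp8 and mt-Co3 was at 12490 FPKM against 9814 and 11820, and mt-Cytb, of complex III, at 3429 against 2899 and 3302. This position rested on induction replicate 1, which was the lowest of the 3 at all of the loci named here: without it the list's median was 0.003, and without replicate 2 it was 0.24. The controls were as far apart, at 28261 and 36378 FPKM summed over the list, beside 35149 with heme.

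The machinery of mitochondrial fusion and fission, named in the study's title, was level for its main members when transcripts were summed by locus. Mfn1, a mitofusin, was at 16.04 FPKM with heme against 15.5 and 15.2, and Dnm1l, the fission GTPase DRP1, at 49.2 against 48.8 and 46.5. Within Dnm1l an unannotated transcript was at 47.5 with heme against 7.21 and 5.64, with controls at 46.8 and 46.4. The annotated ENSMUST00000023477 was at 1.71 against 41.6 and 40.8, with controls at 1.73 and 1.68, so both controls sat with heme. Fis1, a fission adaptor, was at 28.0, between 26.9 and 30.6. Its fellow adaptors were lower with heme: Mff was at 15.4 against 20.4 and 23.8, with controls at 26.3 and 20.4, and Mief1 at 3.12 against 5.38 and 7.92, with controls at 4.54 and 8.13. Of 15 listed genes heme was above both libraries for 5, below both for 5 and between for 5, and 0 passed the test. Mfn2 and Opa1 were not listed.

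In the list of mitochondrial biogenesis and mitophagy, Ssbp1, the single-strand binding protein of mitochondrial DNA, was at 18.1 against 27.5 and 25.4. Its controls were at 27.3 and 27.9. Of the heme value, 10.5 FPKM lay on an unannotated Ssbp1 transcript that was at 0 in all other libraries. The annotated ENSMUST00000117411 was at 1.12 with heme against 17.9 and 17.4, with controls at 16.6 and 18.7. The polymerase gene Polg was at 8.18 against 1.64 and 4.65, with controls at 5.01 and 8.67. Heme lay above both induction libraries for 4 of 10 genes (40.0%) and below both for 3, with 0 past the test.

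Markers of progenitors and neurons gave little contrast between the treatments. Of 7 listed progenitor genes heme was above both induction libraries for 3 (42.9%) and below both for 2 (28.6%), with a median of 0.017. Of 21 neuronal symbols 4 were listed, and heme was above both libraries for 3 of them. Tubb3, the neuronal beta-tubulin, was at 13.99 FPKM with heme against 11.5 and 13.6, with controls at 12.9 and 11.3. Map2, of dendritic microtubules, was at 18.6 against 11.7 and 15.4, with controls at 10.4 and 10.4 (log2 difference 0.44 ± 0.22 SE, limma, adjusted p = 0.838). Dpysl3, of axon growth, was at 82.9 against 75.0 and 81.5, with controls at 86.3 and 63.9. Ncam1 was at 28.8, between 31.0 and 25.2. So 0 of these genes passed the test, and Map2 and Tubb3 were highest in the heme library of the 5.

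Genes that answer to BDNF and serum growth factors did not favour induction. Of 9 listed genes of the BDNF and ERK response heme was above both induction libraries for 5 (55.6%) and below both for 2 (22.2%), with a median of 0.075. Myc was at 6.65 FPKM with heme against 4.59 and 3.70, with controls at 4.82 and 4.08, and Dusp1, a MAP kinase phosphatase, at 16.9 against 13.98 and 13.93, with controls at 15.5 and 18.1. The cells' own Bdnf was at 2.92 against 5.32 and 3.97, with controls at 5.74 and 6.17. Ntrk2, the BDNF receptor, and the immediate early genes Fos, Egr1 and Arc were not listed.

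Targets of YAP and SRF, which respond to serum and tension, lay above induction in the heme library for 12 of 20 genes (60.0%) and below both for 5, with a median of 0.039. Ctgf (Ccn2), a secreted YAP target, was at 185 FPKM against 153 and 146, with controls at 162 and 213 (log2 difference 0.31 ± 0.053 SE, limma, adjusted p = 0.705). Cyr61 (Ccn1) was at 202 against 172 and 163, with controls at 184 and 284, and Acta2, smooth muscle actin, at 844 against 729.6 and 729.7, with controls at 817 and 725. For these 3 genes the heme library was higher by more than the 2 induction libraries differed, and for Ctgf and Cyr61 it was within the range of the controls. The largest distance of the list went the other way: Tagln, transgelin, was at 1.85 against 5.04 and 3.20, with controls at 2.46 and 4.78. Actg1, cytoplasmic gamma-actin, was at 547 against 613 and 595, with controls at 508 and 624.

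Genes of extracellular matrix had heme above both libraries for 10 of 20 (50.0%) and below both for 1 (5.0%), but with a median of 0.026 that became -0.010 without induction replicate 1. Thbs1, thrombospondin, was at 364 against 327 and 313, with controls at 346 and 207. Of 8 interferon and MHC genes heme was above both for 4, with B2m, the light chain of class I MHC, at 481 against 426 and 450. None of these 4 lists had a gene that passed the test.

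For stress and proliferation genes the heme library lay slightly below induction. Of 15 genes of the integrated stress response, through which the heme-regulated kinase HRI is known to act on ATF4, heme was below both induction libraries for 12 (80.0%) and above both for 1 (6.67%). The distances were small, with a median of -0.048: Atf4 was at 180.0 FPKM against 181 and 183, Ddit3 at 12.6 against 13.5 and 18.2, and Psph, of serine synthesis, at 16.4 against 18.2 and 20.3. Of 13 heat shock genes heme was below both for 9 (69.2%), with a median of -0.048 and the chaperone Hspa8 at 855 against 1002 and 964. Within Hspa8 an unannotated transcript was at 0 with heme against 911 and 883, with controls at 920 and 0. The ER chaperones were split, 5 above and 6 below of 15, and Hspa5 (BiP) was at 167 against 174 and 357, with controls at 360.4 and 156.

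Of 23 genes of G2/M heme was below both for 15 (65.2%), with a median of -0.047, and of 21 genes of G1/S for 13 (61.9%), with a median of -0.069 that was -0.016 without induction replicate 1. Ccnb1, cyclin B1, was at 30.7 against 34.96 and 36.7, with controls at 34.6 and 21.4, whereas the proliferation marker Mki67 was at 33.8 against 32.1 and 28.2, with controls at 33.5 and 15.7. The list of p53 targets had heme below both for 7 of 10, with Cdkn1a (p21) between the induction values, at 31.7 against 30.0 and 33.4. In none of these lists did a gene pass the test.

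Lipid, polyamine and selenoprotein genes contained single members with larger distances. Msmo1, a sterol demethylase, was at 12.8 FPKM with heme against 30.1 and 22.4, with controls at 16.8 and 14.3, while Hmgcs1 was at 58.2, between 57.5 and 62.5. Over 20 cholesterol synthesis genes heme was below both for 10 (50.0%) and above both for 2 (10.0%), with a median of -0.03. Elovl1, an elongase of very long fatty acids, was at 38.9 against 24.4 and 23.7, with controls at 23.2 and 26.0 (log2 difference 0.67 ± 0.059 SE, limma, adjusted p = 0.639). Oaz2, an antizyme that marks ornithine decarboxylase for degradation, was at 43.1 against 24.4 and 24.6, with controls at 27.1 and 37.1 (log2 difference 0.79 ± 0.053 SE, adjusted p = 0.639). Selenof, an ER selenoprotein, was at 186 against 140.4 and 145, with controls at 145 and 120.4, and Sepw1 (selenoprotein W) at 148 against 177 and 179, with controls at 157 and 113. For Elovl1, Oaz2 and Selenof heme was the highest of the 5 libraries. Within Oaz2, ENSMUST00000136166 was at 28.5 with heme against 0 and 0, with controls at 14.5 and 23.3. The Oaz2 transcript ENSMUST00000147732 went the other way, at 0.842 against 13.9 and 14.9. Glycolysis and hypoxia genes were level, with a median of 0.007 over 21 genes and Ldha at 661 against 702 and 708.

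**Figure D5:**
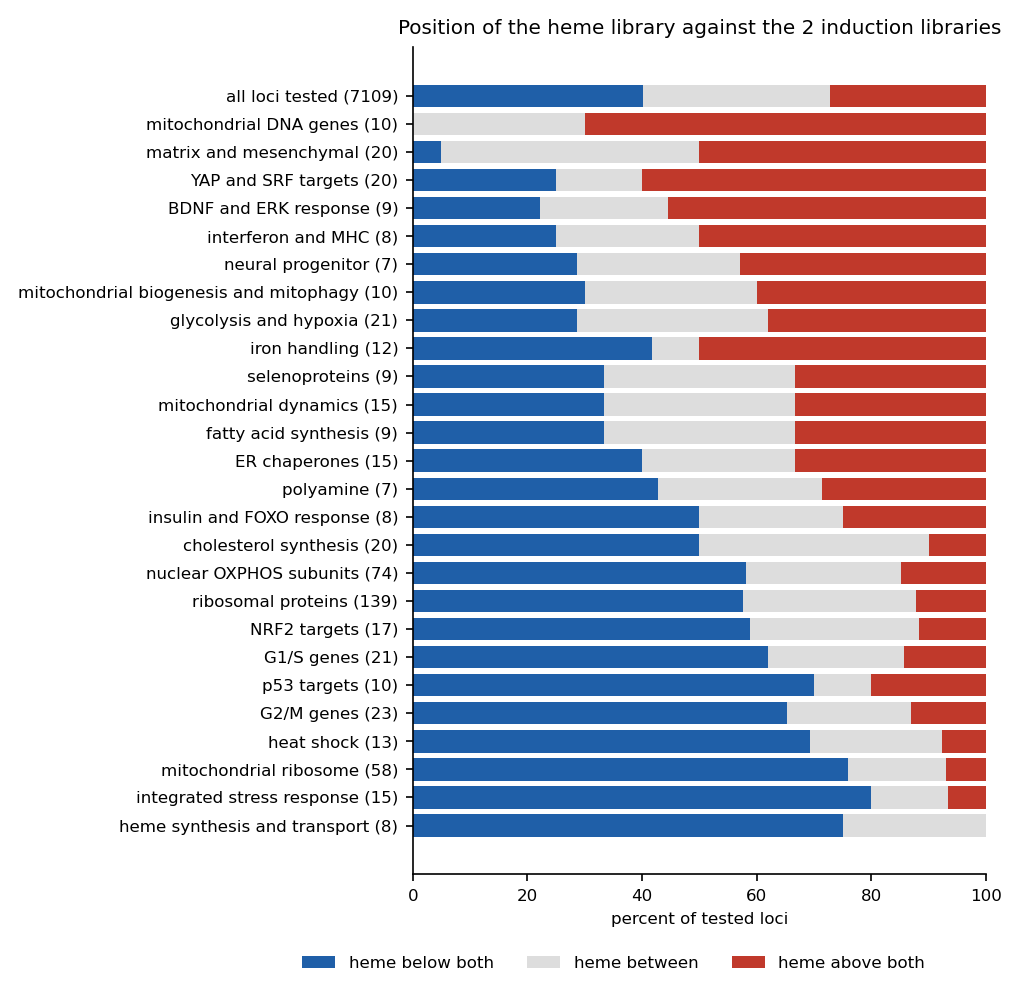
Bars give, for each gene list with at least 7 tested loci (number in brackets), the percentage at which the heme library lay below both (blue), between (grey) or above both (red) induction libraries, with all 7109 loci on top at 40.1% below and 27.3% above. The mitochondrial ribosome stands at 75.9% below and the loci of mitochondrial DNA at 70.0% above.

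Single transcripts varied far more than loci. Of 14460 transcript rows tested, 1459 were at least 1.5-fold above and 1365 at least 1.5-fold below both induction libraries, and they fell in 1782 loci. As sums, 371 loci passed the same rule, of which 354 had such a transcript.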

How the data were processed

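Libraries were made from total RNA with a TruSeq kit, per the labels' protocols. HISAT2, StringTie and edgeR are named in the submitters' processing notes, with GRCm38/mm10, and no versions are given in the sources used here. The authors deposited 1 table of FPKM and per-base coverage (signal) per transcript of a merged assembly. The table gives no read counts, and the test was run on FPKM. FPKM were summed over the rows of each locus, and coverage served only to estimate depth. Loci with at least 1 FPKM in at least 1 library were tested with limma 3.58.1 in R 4.3.3 (intensity trend, two-sided, Benjamini-Hochberg over all 7109 loci) on log2(FPKM + 1). This scale understates fold changes of weak loci. The authors' own comparisons of each treatment with control were not used. Names followed the table, with 30 symbols stored as dates restored through their Ensembl transcript. Of the 10948 Ensembl rows, 10895 are in GENCODE M21.

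Named loci were those of at least 5 FPKM on average with a symbol and heme outside both induction libraries: 10 per direction by the distance to the nearer induction library, 25 symbols whatever their values, and up to 4 members of each list by that distance. Other list members, unnamed loci and Hmgb1 were chosen after their values were seen. Comparison, lists and rules were chosen with earlier results of these data known. Alternatives were other pseudocounts (0.1 and 5), filters, scaling to equal totals, transcript rows, other sets of libraries, a replicate block, and leaving out each induction library. The number of libraries limits the precision.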

Additional observations from a re-analysis of the deposited data

How the results depend on the processing

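The count of 0 called loci per direction held for both other pseudocounts, no filter, the stricter filters, equal totals, no trend, transcript rows, the rescaled heme replicate 2 column alone and each induction library left out (with the spread then taken from the controls). With 5 libraries 1 locus was called higher and 3 lower, and with 5 libraries and a replicate block again 1 and 3. The numbers do not pair the samples (correlation of the control difference with the induction difference -0.047), and with 3 libraries the block leaves no residual degree of freedom. Treating both heme columns as replicates called 148 higher and 67 lower, from a spread between 2 copies of one library. Loci at least 1.5-fold above and below both induction libraries numbered 75 and 76 with a pseudocount of 5, and 45 and 74 at a mean of 5 FPKM. The filter in 2 libraries left 96 above. With the heme replicate 2 column they were 675 and 135 (median difference 0.415), by transcript rows 1459 and 1365. With one induction library left out they ranged from 408 to 412 above and from 427 to 430 below, since a single library then has to be passed. With 1 heme library, its own spread is unknown.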
